A study of Mus musculus with 12 samples.

Results

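Astrocytes sorted as CD51+ from the hippocampus were compared with astrocytes sorted as CD51+ from the cortex of the same kind of mouse. Members were taken from the sample titles: the 3 libraries titled as hippocampal CD51+ astrocytes and the 3 titled as cortical CD51+ astrocytes, 6 of the 12 RNA-seq libraries of the series. Every gene that passed a filter on low counts was tested, 12613 of the 55401 genes counted. All mice carried a Flp recombinase at the CD51 locus and a reporter (Rosa-CAG-FSF-tdTomato) that makes tdTomato after Flp has acted, so the mark follows any cell in which the CD51 driver was ever active. Cells with tdTomato and GFP were collected as CD51+ and cells with GFP alone as CD51-, but the labels do not say what drives GFP. No further treatment was named for any group, and neither age, sex nor the number of animals is given in the labels. Nothing says that the libraries came from separate animals, so p-values measure the spread between these libraries, which may be technical. Groups follow the titles, although the library names carry G where the title says CD51+ and GT where it says CD51-, and read as GFP alone and GFP with tdTomato these names would swap the classes.

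CD51 is the alpha-v integrin subunit, encoded by Itgav, which pairs with several beta subunits to bind matrix proteins and to release active TGF-beta from its latent complex. Astrocytes clear glutamate and GABA, buffer potassium, supply lipid and energy substrates to neurons and secrete proteins that organise synapses. They keep traces of the place where they were born: cortical and hippocampal astrocytes share a core programme and differ in patterning factors, secreted signals and intermediate filaments. The hippocampus also adjoins the choroid plexus, the secretory epithelium that makes cerebrospinal fluid, and holds the radial glia-like stem cells of the dentate gyrus.

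The 6 CD51+ libraries held 4351900 to 12847200 counts and 12113 to 13143 detected genes each. Levels below are in CPM, counts scaled to 1e+06 per library with trimmed-mean (TMM) factors, and differences are log2 fold changes of hippocampus over cortex ± SE from edgeR's quasi-likelihood fit to all 12 libraries, with Benjamini-Hochberg adjusted p. Mitochondrial transcripts made up 36.5%, 47.7% and 71.1% of counts in the cortical libraries and 49.9%, 52.2% and 53.3% in the hippocampal libraries. Cortical replicate 3 stood apart: mitochondrial ribosomal RNA was 58.4% of its counts, against 1.04% to 3.54% in the other 11 libraries. Of the genes that reached 50 CPM in at least 1 library of a group, 6.98% were under 1 CPM in another library of the group in cortex and 4.79% in hippocampus. The Y-linked gene Ddx3y was at 2.85, 19.8 and 0.406 CPM in the cortical libraries and at 0 in the 3 hippocampal ones, while Xist was present in all 6, at 375 to 1134 CPM. The part of the animals' sex in the results was not tested.

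Itgav itself was at 337, 537 and 879 CPM in cortical and at 373, 323 and 412 CPM in hippocampal CD51+ libraries. The groups overlapped, and the difference was -0.66 ± 0.55 (95% interval -1.80 to 0.48, edgeR adjusted p = 0.746). The CD51- libraries held Itgav as well, at 358, 248 and 326 CPM in cortex and 223, 565 and 356 CPM in hippocampus, with overlap. An exact two-sided permutation test of the 6 libraries gave p = 0.3, and the smallest p that 3 against 3 libraries allow is 0.1.

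No astrocyte marker passed the test between the regions. The summed level of 22 astrocyte markers was 89914 ± 12648 CPM in cortex and 73532 ± 9145 CPM in hippocampus (SD, n = 3 each), and the groups overlapped (exact permutation p = 0.3). These genes were less abundant in the libraries titled CD51-, at 12484 ± 6435 CPM in cortex and 20687 ± 1576 CPM in hippocampus (SD, n = 3 each). All 22 markers were tested, and edgeR, DESeq2 and limma-voom called 0 of them. Also at an unadjusted edgeR p under 0.05 there were 0. Their median log2 fold change was -0.28, beside 0.00 over all 12613 genes.

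Slc1a2, the main glutamate transporter of the forebrain, was at 39753 ± 6710 CPM in cortex and 32862 ± 3044 CPM in hippocampus (SD, n = 3 each), a difference of -0.27 ± 0.36 (interval -1.01 to 0.47). Per kilobase of exon it stood at 3027 and 2502 CPM, and Sparcl1, a secreted protein that promotes synapse formation, at 5143 and 3811 CPM. The 8 most abundant markers were Slc1a2, Sparcl1, the glycolytic enzyme Aldoc, the glutamate transporter Slc1a3, the glutamine synthetase gene Glul, the chloride channel gene Ttyh1, the protease inhibitor gene Cst3 and the sodium pump subunit gene Atp1b2. Their differences lay between -0.61 ± 0.41 for Slc1a3 and 0.05 ± 0.41 for Cst3. For Slc1a3 the libraries did not overlap, with 4471, 4624 and 5729 CPM in cortex against 2939, 3532 and 3259.9 CPM in hippocampus, but its edgeR adjusted p was 0.631. Sparcl1 and Atp1b2 were likewise lower in each hippocampal library than in each cortical one (edgeR adjusted p = 0.745 and 0.786), and 16 of the 22 markers had a negative difference. The intervals of these 8 genes reach from -1.51 to 1.08, so changes of up to about that size were not detectable here. The direction of Aldoc, Ttyh1 and Cst3 changed with the scaling or with the libraries used.

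**Figure D1:**
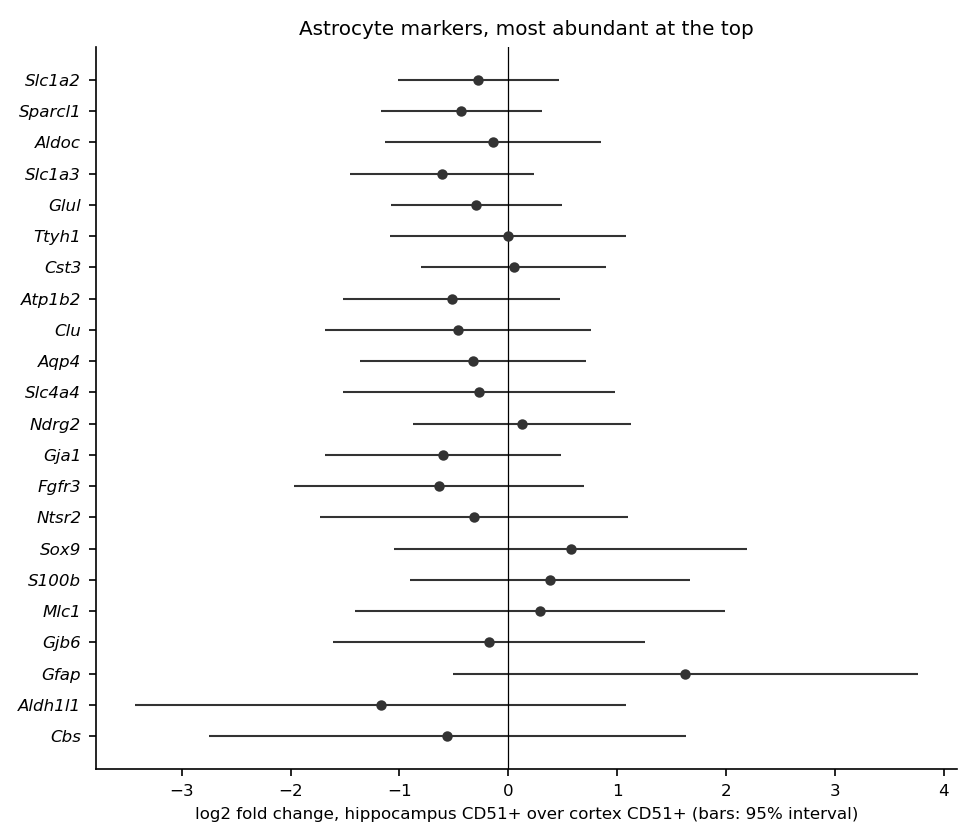
Fitted log2 fold change of hippocampus CD51+ over cortex CD51+ (x axis; bars, 95% interval) for the 22 astrocyte markers, ordered from the most abundant (top) to the least abundant (bottom) over the 6 CD51+ libraries. Every interval includes 0, and the intervals of Slc1a2 (-1.01 to 0.47) and of the other abundant genes near the top are narrower than those of Gfap (-0.51 to 3.76) and the genes near the bottom.

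Across all genes, 5 passed the edgeR test at an adjusted p under 0.05, which is 0.0396% of the genes tested. Hippocampal CD51+ libraries were higher for Slit2, Prlr and Nabp1 (0.0238%) and lower for Tgfbr1 and Csf3r (0.0159%). At an unadjusted p under 0.05 edgeR had 1488 genes (11.8%), 898 higher (7.12%) and 590 lower (4.68%). DESeq2 called 488 (3.87%; 304 higher, 2.41%, and 184 lower, 1.46%), which include the 5, and limma-voom called 2 (0.0159%), Slit2 and Bgn. The libraries of the regions did not overlap for 1704 genes (13.5%), 951 higher (7.54%) and 753 lower (5.97%) in hippocampus. These shares over all genes are the background for the counts of list members below. With only the 6 CD51+ libraries in the fit, edgeR called 3 of 8813 genes (0.034%): Slit2, Ttr and Chrdl1. Counts were also simulated for all 12 libraries, with changes put only into genes that averaged at least 5 CPM in the CD51+ groups. These counts were drawn with the spread that the same fit had estimated for each gene, and no library was made to stand apart. How many calls in the real data are false cannot be read from the simulation. Of the 11602 genes tested there, the fit of 12 libraries made 0 false calls. It recovered 0 of 50 genes changed by 1 log2 unit, 0 of 50 changed by 2, 2 of 50 changed by 3 and 10 of 50 changed by 4. A gene that was not called may thus still differ by several log2 units.

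**Figure D2:**
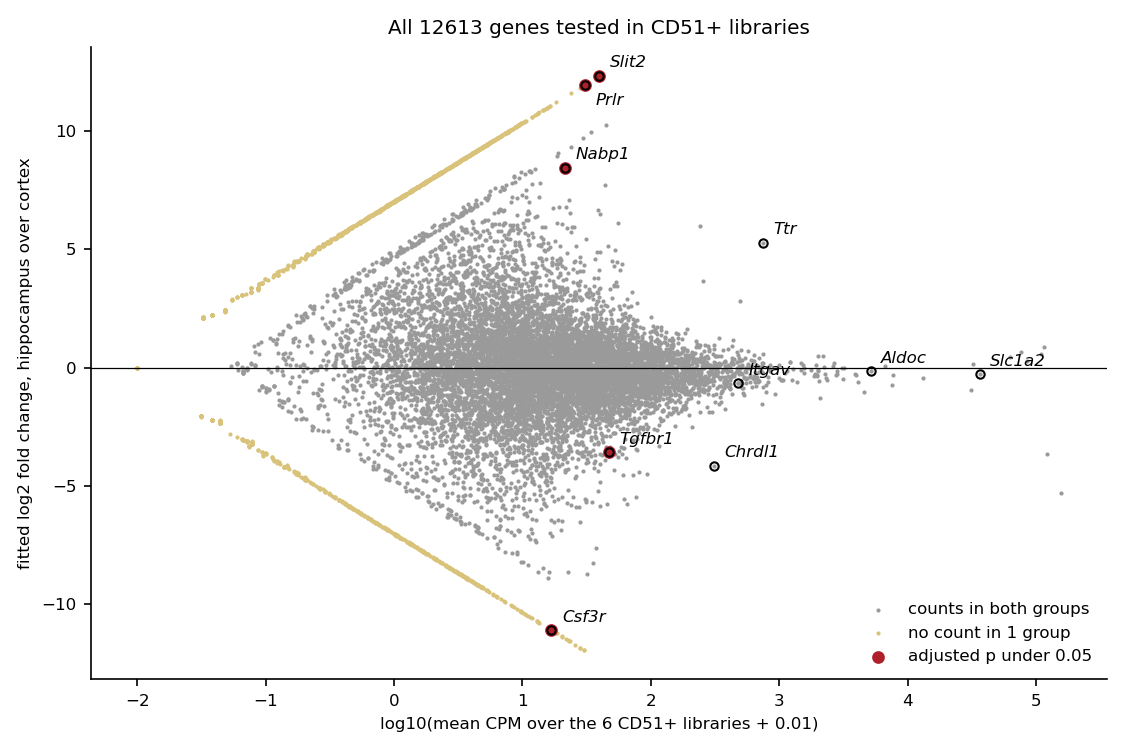
Fitted log2 fold change of hippocampus over cortex CD51+ (y axis) against the log10 of the mean CPM over the 6 CD51+ libraries plus 0.01 (x axis) for the 12613 genes tested. Red points are the 5 genes called, yellow points are genes without a count in 1 of the groups, whose fitted fold is set by the prior count and is no estimate, and open circles mark further genes named in the text. Abundant genes such as Slc1a2 lie near 0, and Ttr and Chrdl1 lie apart from genes of like abundance.

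Slit2 was the gene called by edgeR, DESeq2 and limma-voom alike. It encodes a secreted guidance protein that repels axons and migrating cells through Robo receptors, and lies on chromosome 5 at 47983138 to 48307733 (mm10). It had no count in any cortical CD51+ library and stood at 54.6, 44.0 and 139 CPM in the hippocampal ones, at least 488-fold higher against a floor of 3 counts over the cortical group. All hippocampal libraries were above all cortical ones, and the adjusted p was 0.0385 in edgeR, 1.13e-09 in DESeq2, 0.0166 in limma-voom and 0.0138 in the edgeR fit of the 6 libraries. Without cortical replicate 1, 2 or 3, or without hippocampal replicate 3, the edgeR adjusted p was 0.0614, 0.0896, 0.0744 and 0.0764. The CD51- libraries were split by region as well, with 0, 0 and 0.146 CPM in cortex and 30.4, 60.4 and 12.0 CPM in hippocampus. The difference between the classes in that regional difference did not pass (edgeR interaction adjusted p = 0.643).

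Chrdl1 was the counterpart on the cortical side. It encodes a secreted BMP antagonist through which astrocytes promote synapse maturation, and lies on the X chromosome at 143285674 to 143394262. Its level was 568, 513 and 689 CPM in cortical and 31.2, 42.1 and 27.1 CPM in hippocampal CD51+ libraries. Every cortical library lay above every hippocampal one. The difference was -4.14 ± 1.07, with an adjusted p of 0.206 in the edgeR fit of 12 libraries, 0.00583 in DESeq2, 0.130 in limma-voom and 0.000615 (-4.10 ± 0.50) in the edgeR fit of the 6 CD51+ libraries. Chrdl1 stood in the CD51- libraries at 33.3, 17.1 and 232 CPM in cortex and 5.58, 10.5 and 0.0906 CPM in hippocampus, a difference of -4.12 ± 1.07. The interaction adjusted p in edgeR was 1.

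**Figure D3:**
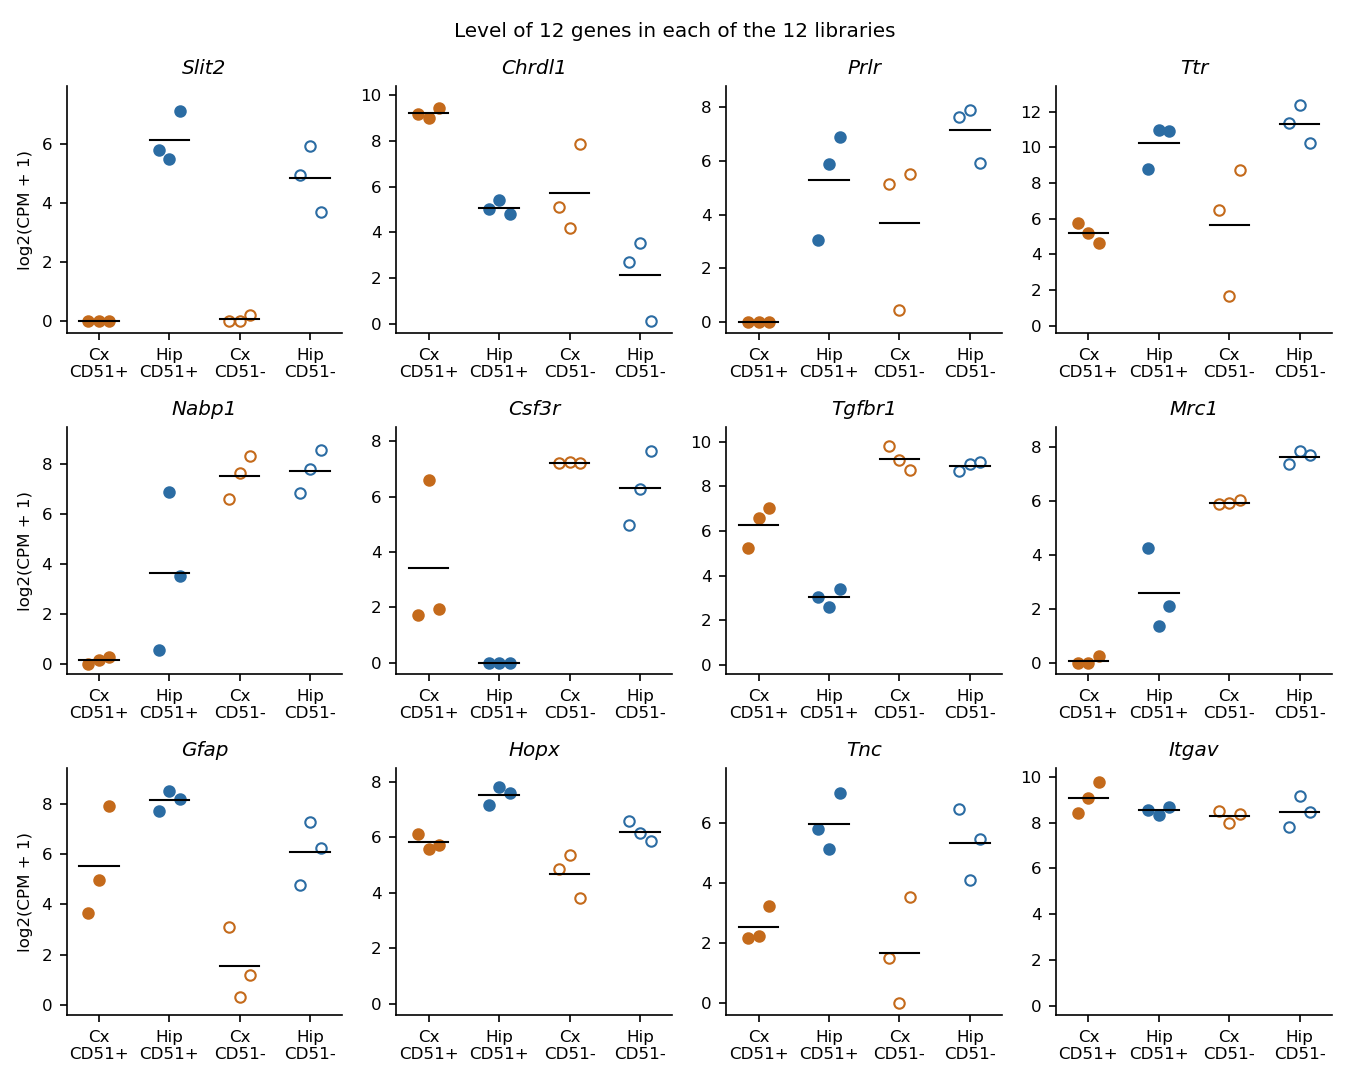
Level, as log2(CPM + 1), of 12 genes in each library (points; filled, CD51+; open, CD51-; orange, cortex (Cx); blue, hippocampus (Hip)), with a line at the mean of the 3 libraries of a group. Slit2 was at or near 0 in all 6 cortical libraries and Chrdl1 was lower in hippocampus in both classes, whereas Nabp1, Csf3r, Tgfbr1 and Mrc1 stood higher in the CD51- libraries of both regions than in nearly all CD51+ libraries.

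Tgfbr1 encodes the type I TGF-beta receptor, which phosphorylates SMAD2 and SMAD3, and lies on chromosome 4 at 47353222 to 47414931. It was at 36.6, 94.1 and 131 CPM in cortical and at 7.34, 5.10 and 9.72 CPM in hippocampal CD51+ libraries, without overlap. Hippocampal CD51+ libraries were lower by -3.56 ± 0.66 (edgeR adjusted p = 0.0385; DESeq2 6.83e-05; limma-voom 0.506; edgeR on the 6 libraries 0.235). It was far more abundant in the CD51- libraries, at 890, 571 and 426 CPM in cortex and 408, 516 and 539 CPM in hippocampus, which overlapped. Its interaction adjusted p was 0.157 in edgeR and 0.0349 in DESeq2. Leaving out any of the CD51+ libraries except cortical replicate 1 ended the call, with adjusted p from 0.0572 to 0.145.

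Tgfbr1 belongs to a list of 28 genes of alpha-v integrins and TGF-beta signalling, of which 25 were tested. It was the only member called by edgeR, with a list median of -0.47, and DESeq2 called 4 higher and 2 lower (2.41% and 1.46% over all genes tested). Smad7, an inhibitor of the receptor that TGF-beta induces, had 0.336, 0.128 and 0 CPM in cortex and 5.96, 24.1 and 4.19 CPM in hippocampus. That is a ratio of 80.9 (95% counting interval 27.3 to 395), with an edgeR adjusted p of 0.0676. Without hippocampal replicate 2 the fitted difference of Smad7 went from 6.04 to 4.87 (edgeR adjusted p = 0.207). Smad3, a transducer of the receptor, was at 66.3, 1.15 and 64.3 CPM in cortex and 0.459, 0 and 2.01 CPM in hippocampus. Cortical replicate 2 lay within the hippocampal range of Smad3, and its edgeR adjusted p was 0.304. Smad7, like Tgfbr1, was more abundant in the CD51- libraries, at 81.4 to 122 CPM in cortex and 78.5 to 122 CPM in hippocampus.

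Csf3r, the receptor of granulocyte colony-stimulating factor and a gene of myeloid cells (chromosome 4, 126024550 to 126044440), was at 2.35, 95.5 and 2.84 CPM in cortical CD51+ libraries and had no count in the hippocampal ones. It was at least 245-fold lower in hippocampus (edgeR adjusted p = 0.0385; DESeq2 1.17e-06; limma-voom 0.254), and cortical replicate 2 held most of its counts. Without that library the edgeR adjusted p was 0.109. Without hippocampal replicate 2 or 3 it was 0.0807 and 0.0509. Csf3r was also present in the CD51- libraries, at 147, 150 and 148 CPM in cortex and 30.3, 77.2 and 197 CPM in hippocampus.

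Nabp1, a single-stranded DNA-binding protein of the DNA damage response (chromosome 1, 51465862 to 51478425), was at 0, 0.128 and 0.203 CPM in cortical and 0.459, 117 and 10.6 CPM in hippocampal CD51+ libraries. The ratio was 494 (counting interval 136 to 4083; edgeR adjusted p = 0.0385; DESeq2 1.17e-05; limma-voom 0.475). Hippocampal replicate 2 carried most of it, and without that library the adjusted p was 0.0993. Without cortical replicate 1, 2 or 3 it was 0.0614, 0.0895 and 0.0744. Both regions had 95.8 to 377 CPM of Nabp1 in the CD51- libraries.

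The mitochondrial ribosomal RNA gene mt-Rnr1, whose libraries overlapped, had a difference of -5.30 ± 1.05 (edgeR adjusted p = 0.0607). Without cortical replicate 3, the library rich in this RNA, the difference was -0.60 (edgeR adjusted p = 0.719). Among genes that averaged 5 CPM or more on their higher side without overlap between the regions, the next by p did not pass. On the hippocampal side they were Rgs2, a brake on G protein signalling (0.504, 0 and 0.203 CPM in cortex, 21.6, 4.29 and 6.87 CPM in hippocampus, edgeR adjusted p = 0.0607), Mrc1, the mannose receptor of border macrophages (0, 0 and 0.203 against 18.4, 1.61 and 3.35 CPM, 0.0607), and the histone chaperone gene Spty2d1 (0, 0 and 0 against 23.2, 12.3 and 9.05 CPM, 0.0607). On the cortical side they were Runx1, a blood-lineage transcription factor (14.9, 0.256 and 1.83 against 0, 0 and 0 CPM, edgeR adjusted p = 0.0711), the transporter gene Abca9 (3.19, 96.3 and 22.1 against 1.84, 1.21 and 3.02 CPM, 0.0711), the splicing regulator Ptbp3 (91.7, 311 and 14.8 against 9.63, 6.04 and 2.18 CPM, 0.0797) and the inducible chaperone Hspa1b (0.168, 1.92 and 22.5 against 0, 0 and 0 CPM, 0.0944). The CD51- libraries had Rgs2 at 121 to 268 CPM, Mrc1 at 58.2 to 232 CPM and Abca9 at 246 to 540 CPM, and Rgs2, Mrc1, Abca9, Runx1 and Hspa1b were lower in each CD51+ library than in each CD51- library.

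Markers of myeloid cells were therefore set beside these genes. The summed level of 14 microglial markers was 341, 1062 and 510 CPM in cortical and 209, 244 and 1795 CPM in hippocampal CD51+ libraries, and 11625 ± 1776 and 7636 ± 1623 CPM in the CD51- libraries (SD, n = 3 each). The sum was highest in hippocampal replicate 3 and, in cortex, in replicate 2. The regions overlapped (exact permutation p = 1). Cortical replicate 2 also held most of the Csf3r and Abca9 counts. In contrast, Runx1 was highest in cortical replicate 1 (14.9 CPM) and Tgfbr1 in cortical replicate 3 (131 CPM). Mrc1 and Rgs2 were highest in hippocampal replicate 1 (18.4 and 21.6 CPM), and Nabp1 and Smad7 in hippocampal replicate 2 (117 and 24.1 CPM). Of the 14 microglial markers 10 had positive and 4 negative differences, and 1 was at 0 in all cortical libraries. The member with the smallest edgeR p, Tyrobp, was at 0.672, 2.18 and 2.03 CPM in cortex and 8.95, 3.49 and 14.6 CPM in hippocampus (edgeR adjusted p = 0.304). Of the microglial list edgeR called 0 of 14, with 4 at an unadjusted p under 0.05, all higher in hippocampus (7.12% over all genes tested). DESeq2 called 1 higher (2.41% over all genes) and limma-voom 0. The 10 markers of border macrophages and other leukocytes summed to 0.336, 0.385 and 31.9 CPM in cortex and 18.6, 1.74 and 19.3 CPM in hippocampus, with 6 of 10 at 0 in each group. The part of myeloid RNA in the differences of Tgfbr1, Csf3r, Nabp1, Rgs2, Mrc1, Smad7, Runx1 and Abca9 was not tested. In such bulk libraries fewer cells of a type and less RNA per cell cannot be told apart.

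Prlr, the prolactin receptor (chromosome 15, 10177238 to 10349180), is among the genes that mark the choroid plexus. It had no count in cortical CD51+ libraries and stood at 7.34, 58.2 and 118 CPM in hippocampal ones, at least 409-fold higher. All 3 hippocampal libraries were above the cortical ones (edgeR adjusted p = 0.0385; DESeq2 9.19e-08; limma-voom 0.130; edgeR on the 6 libraries 0.0858). Without cortical replicate 2 or 3 the edgeR adjusted p was 0.0693 and 0.0744. Prlr was detected in the CD51- libraries too, at 34.3, 0.359 and 44.8 CPM in cortex and 196, 236 and 58.9 CPM in hippocampus (interaction adjusted p = 0.140 in edgeR and 0.00441 in DESeq2).

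The other choroid plexus markers lay on the same side. Of the 12 listed, 11 were tested and all 11 were higher in hippocampus, 1 called by edgeR, 10 at an unadjusted p under 0.05 and 6 called by DESeq2. Over all 12613 genes tested 6146 were positive, 7.12% were higher at an unadjusted edgeR p under 0.05 and DESeq2 called 2.41% higher. Of the 11, 8 had no count in cortical CD51+ libraries. Those 8 passed the filter only through other groups and could not have come out lower in hippocampus. The median log2 fold change of the 11 was 7.62, or 5.28 with genes absent from a group at their bound. The summed level of the list was 105, 275 and 108 CPM in cortex and 882, 3091 and 3408 CPM in hippocampus, a ratio of 15.1 without overlap (exact permutation p = 0.1, the smallest possible, adjusted 0.75 over 15 such tests). In cortex 9 of the 12 were at 0 in all 3 libraries, and in hippocampus none was. Ttr, which encodes the thyroid hormone carrier transthyretin, held much of the sum, at 53.1, 35.9 and 23.9 CPM in cortex and 444, 1969 and 1945 CPM in hippocampus. Its difference was 5.27 ± 1.08 (edgeR adjusted p = 0.0607; DESeq2 0.000214; limma-voom 0.715; edgeR on the 6 libraries 0.000302). Kl, which encodes Klotho, was at 0 in cortex and at 1.84, 16.1 and 30.5 CPM in hippocampus, and the bicarbonate transporter Slc4a5 at 0 and at 14, 12.6 and 19.8 CPM (edgeR adjusted p 0.0711 and 0.292). The part of choroid plexus RNA in the regional differences was not tested, and CD51- libraries had it too, at 446 ± 523 CPM in cortex and 5068 ± 3199 CPM in hippocampus (SD, n = 3 each). Slit2 was not among the 12 listed, and whether its counts came from choroid plexus RNA was not tested.

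**Figure D4:**
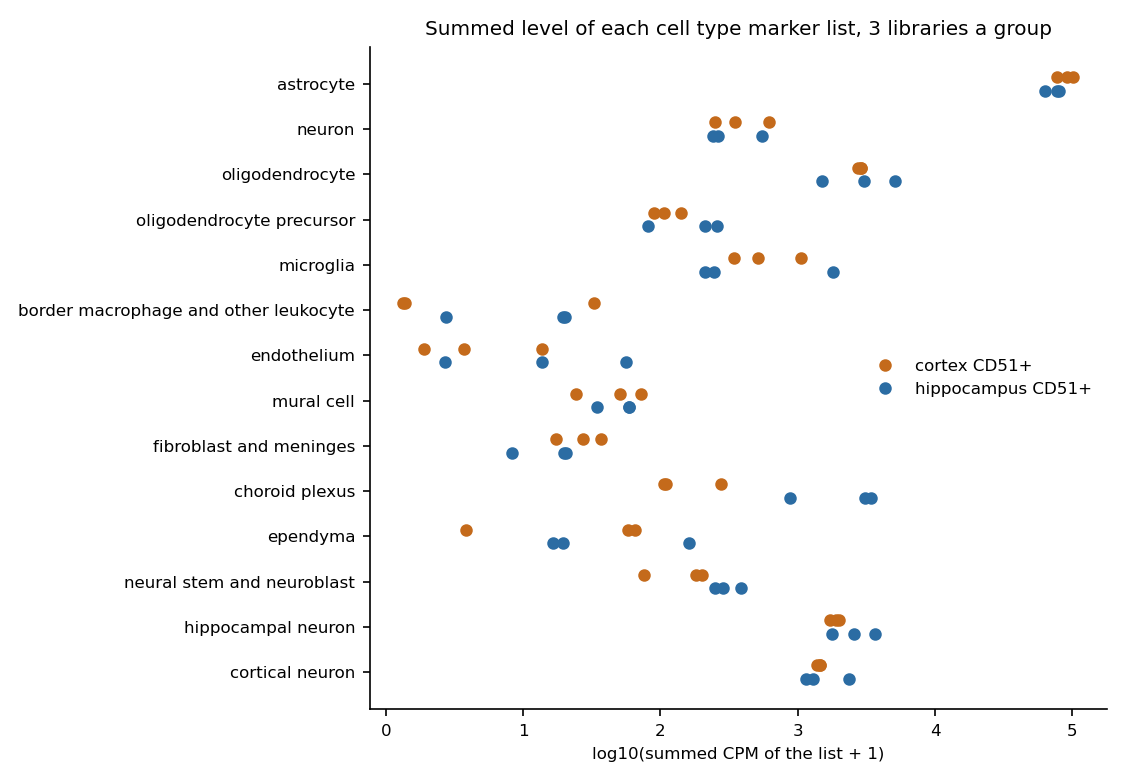
Summed level of each cell type marker list, as log10(CPM + 1), in the 3 cortical (orange) and 3 hippocampal (blue) CD51+ libraries. Astrocyte markers lead in all 6 libraries, and the choroid plexus list (105 to 275 CPM in cortex, 882 to 3408 CPM in hippocampus) and the neural stem list are those whose groups do not overlap with hippocampus above cortex.

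Markers of other cell types were summed in the same way. The neural stem and neuroblast list summed to 181, 74.9 and 201 CPM in cortex and 285, 249 and 384 CPM in hippocampus, a ratio of 2.01 without overlap (exact permutation p = 0.1, adjusted 0.75). It includes Hopx, a homeodomain gene of radial glia-like cells that mature astrocytes express too, with 68.5, 47.3 and 52.4 CPM in cortex and 144, 222 and 191 CPM in hippocampus (1.72 ± 0.75, edgeR adjusted p = 0.369). Hopx and Thbs4, a thrombospondin with 0.504, 12.3 and 11 CPM in cortex and 105, 14.4 and 176 CPM in hippocampus, hold most of the higher sum. The neuroblast gene Dcx had 0, 0.385 and 131 CPM in cortex and no count in hippocampus. Of the 10 members tested 5 had positive and 3 negative differences, with a median of 0.08, or 0.82 with genes absent from a group at their bound, and edgeR, DESeq2 and limma-voom called 0 (2 higher and 1 lower at an unadjusted edgeR p under 0.05). Oligodendrocyte markers summed to 2833 ± 90.3 CPM in cortex and 3230 ± 1818 CPM in hippocampus (SD, n = 3 each). Of the 13, 6, among them Ermn, were without overlap higher in hippocampus (7.54% over all genes tested). In this list edgeR and limma-voom called 0. At an unadjusted edgeR p under 0.05 6 were higher (7.12% over all genes), and DESeq2 called 2 higher (2.41%). Neuron markers summed to 403 ± 188 and 351 ± 173 CPM (SD, n = 3 each). Of the 10 tested 4 had positive and 6 negative differences, edgeR and limma-voom called 0, 2 were lower in hippocampus at an unadjusted edgeR p under 0.05, and DESeq2 called 1 lower, Syt1. The vesicle gene Syt1 was at 44.7, 60.4 and 6.90 CPM in cortex and at 2.29, 0.134 and 0 CPM in hippocampus, without overlap (edgeR adjusted p = 0.354, DESeq2 0.0412). Syn1, which coats synaptic vesicles, was at 35.4, 127 and 87.1 against 12.4, 15.4 and 19.1 CPM (0.528). Lists for oligodendrocyte precursors, endothelium, mural cells, fibroblasts, ependyma, hippocampal neurons and cortical neurons had ratios of hippocampus to cortex between 0.582 and 4.24, all with overlap (exact permutation p from 0.3 to 1), and edgeR and limma-voom called 0 of their genes.

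Transcription factors that pattern the telencephalon gave 0 calls among 20 tested in edgeR and limma-voom and 2 in DESeq2, with 2 at an unadjusted edgeR p under 0.05, and a median of 0.09. Both were higher in hippocampus. Over all 12613 genes tested 7.12% were higher at an unadjusted edgeR p under 0.05, and DESeq2 called 2.41% higher. Neither of the 2 had a count in cortical CD51+ libraries. They passed the filter only through other groups and could not have come out lower in hippocampus. Nr2f2, an orphan nuclear receptor of caudal and medial telencephalon, was at 0 in cortex and at 7.80, 13.1 and 6.53 CPM in hippocampus, at least 59.9-fold higher. Zic1, a zinc-finger factor of the dorsal midline, was at 0 and at 3.90, 10.1 and 0.838 CPM, at least 34.0-fold higher (edgeR adjusted p = 0.321 for both). Etv5, a target of FGF signalling, was at 56.1, 130 and 241 CPM in cortex and 41.1, 37.6 and 38.9 CPM in hippocampus (-1.86 ± 0.95, edgeR adjusted p = 0.455). Prox1, the identity factor of dentate granule cells, had 0, 0 and 0.203 CPM in cortical and 6.19, 38.2 and 11.7 CPM in hippocampal CD51+ libraries, without overlap (edgeR adjusted p = 0.0607, DESeq2 0.00012). The CD51- libraries went the other way for Prox1, with 7, 535 and 85.9 CPM in cortex and 24.4, 32.7 and 29.2 CPM in hippocampus. Its interaction had an edgeR adjusted p of 0.139 and a DESeq2 adjusted p of 7.08e-06. Zbtb20, needed for hippocampal identity, was abundant in both regions, at 1714 to 1925 CPM in cortex and 1691 to 3491 CPM in hippocampus.

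Genes for handling glutamate and GABA leaned to the cortical side. Of 26 tested, 23 had a negative and 3 a positive log2 fold change, with a median of -0.58, and 6 were lower without overlap. The tools edgeR, DESeq2 and limma-voom called 0, and 2 had an unadjusted edgeR p under 0.05. Over all 12613 genes 6097 were negative and 5.97% were lower without overlap, and 16 of the 22 astrocyte markers were negative too. In the CD51- libraries the list median was 0.70, beside 0.12 over all genes. The interaction had 10 of the 26 at an unadjusted edgeR p under 0.05 (12.6% over all genes) and 0 called. The GABA-B receptor subunit gene Gabbr2 stood at 574, 500 and 332 against 71.6, 263 and 45.2 CPM, and the metabotropic glutamate receptor gene Grm3 at 472, 599 and 1115 against 326, 283 and 366 CPM. Neither overlapped, and their edgeR adjusted p were 0.533 and 0.577.

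Lipid genes had a similar lean. Of 32 genes of cholesterol synthesis and lipid carriage 26 were negative, the median was -0.59, and edgeR and limma-voom called 0 (4 at an unadjusted edgeR p under 0.05, 2 in each direction, and 1 called higher by DESeq2). In the CD51- libraries the median of this list was 0.73. Abca1, the cholesterol exporter that loads apolipoprotein E, was at 270, 344 and 406 CPM in cortex and 114, 123 and 140 CPM in hippocampus (-1.44 ± 0.56, edgeR adjusted p = 0.349). Scap, the escort protein of SREBP factors, was at 22.7, 61.3 and 73.9 against 3.44, 0.134 and 14.4 CPM (0.417). Neither Abca1 nor Scap overlapped between regions. Abcg4, the member with the smallest edgeR p, and Ebp went the other way without overlap, and 6 of the 32 were positive. Abcg4 was at 0 in cortex and at 9.86, 7.92 and 57.8 CPM in hippocampus (edgeR adjusted p = 0.310, DESeq2 0.00672). Ebp was at 0 and at 0.459, 7.78 and 0.168 CPM (edgeR adjusted p = 0.350). Without a cortical count these genes could not have come out lower in hippocampus. The lists of potassium, water and gap junction genes (median -0.32, 20 tested, including Gja1, connexin 43, at 914, 754 and 1271 against 515, 519 and 903 CPM), calcium and receptor signalling (median -0.03, 19 tested) and energy metabolism (median -0.08, 37 tested) had 0 calls in edgeR, DESeq2 and limma-voom, and 0, 1 and 0 members at an unadjusted edgeR p under 0.05.

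Secreted matrix and synapse-organising proteins were compared next. Of 26 synapse-organising factors tested edgeR called 0 (limma-voom 0), and DESeq2 called 1 higher and 1 lower. At an unadjusted edgeR p under 0.05 there were 5 higher and 1 lower (7.12% and 4.68% over all genes tested). Tnc, the matrix glycoprotein tenascin-C, was at 3.53, 3.72 and 8.32 CPM in cortex and 55.1, 34.1 and 126 CPM in hippocampus (3.79 ± 1.47, edgeR adjusted p = 0.349, DESeq2 0.0449). Sparc, an antagonist of the synaptogenic Sparcl1, was at 157, 313 and 131 against 382, 682 and 379 CPM. For both genes, and for Thbs4 of the same list, each hippocampal library was higher than each cortical one, whereas Chrdl1 and Sparcl1 of the same list were lower. Tnc had in the CD51- libraries a like difference of 3.58 ± 1.46, at 1.86, 0 and 10.5 CPM in cortex and 88.5, 16.1 and 43.1 CPM in hippocampus.

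Bgn, the proteoglycan biglycan, was called by limma-voom (adjusted p = 0.0386) and DESeq2 (7.14e-07) but not by edgeR (0.0944), and was singled out after its values were seen. It had no count in cortical CD51+ libraries and 58.3, 52.1 and 32.8 CPM in hippocampal ones, at least 293-fold higher. Of 23 genes of matrix and basement membrane tested edgeR and limma-voom called 0, DESeq2 called 3 higher, as many had an unadjusted edgeR p under 0.05, and the median was -0.43. Of the guidance and adhesion list 47 genes were tested, and the median was -0.33. Slit2 was the only call in edgeR and in limma-voom, and DESeq2 called 3 higher and 0 lower. Nrp2, a semaphorin co-receptor, was at 0, 1.15 and 0.203 CPM in cortex and 28.9, 19.2 and 40.5 CPM in hippocampus (edgeR adjusted p = 0.271, DESeq2 0.000191).

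Gfap, the intermediate filament that is higher in white matter, pial and hippocampal astrocytes, was at 11.8, 30.7 and 238 CPM in cortex and 210, 366 and 289 CPM in hippocampus. Cortical replicate 3 lay inside the hippocampal range, and the difference was 1.63 ± 1.03 (edgeR adjusted p = 0.592). Without that library it was 3.75, and in limma-voom with all libraries 2.86 (adjusted p = 0.422 and 0.352). Gfap in the CD51- libraries was at 7.51, 0.240 and 1.31 CPM in cortex and 26.4, 154 and 74.4 CPM in hippocampus, a difference of 4.79 ± 1.19. Myoc, a marker of subpial and fibrous astrocytes, had no count in cortex and 18.1, 59.0 and 1.68 CPM in hippocampal CD51+ libraries (edgeR adjusted p = 0.308). Among 26 astrocyte genes that vary by layer or region edgeR and limma-voom called 0, with 4 higher and 3 lower at an unadjusted edgeR p under 0.05 and 1 in each direction called by DESeq2. Of 22 genes of reactive astrocytes edgeR and limma-voom called 0, DESeq2 called 2 higher, 3 higher and 1 lower had an unadjusted edgeR p under 0.05, and the median was 0.79.

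Markers of cell handling were mixed. Of 27 immediate early genes edgeR and limma-voom called 0, DESeq2 called 2 higher, and 3 higher and 4 lower had an unadjusted edgeR p under 0.05. Egr1, an activity-induced transcription factor, was at 46.2, 11.7 and 33.7 CPM in cortex and 54.6, 143 and 101 CPM in hippocampus (edgeR adjusted p = 0.304), against 2699.9 to 7696 CPM in the CD51- libraries. Among mitochondrially encoded mRNAs 11 of 13 were positive with a median of 0.26, 0 called by edgeR, DESeq2 or limma-voom and 1 at an unadjusted edgeR p under 0.05. That gene was mt-Nd2, a complex I subunit, at 0.85 ± 0.33 (adjusted p = 0.349). For nuclear genes of the respiratory chain the median was -0.38 over 29 genes, with 0 calls by the 3 tools and 0 at an unadjusted edgeR p under 0.05. Ndufs1, a complex I subunit, was at 23, 22.7 and 17.2 against 53.0, 70.4 and 189 CPM, and Sdha, of complex II, at 314, 212 and 372 against 183, 118 and 198 CPM. Neither overlapped, and they pointed in opposite directions.

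Whether the regional difference was particular to CD51+ libraries was asked by the interaction of region and class. The edgeR test called 0 genes (1583 at an unadjusted p under 0.05, which is 12.6%), limma-voom called 0 and DESeq2 called 522 (4.14%). In the CD51- libraries alone the regional contrast called 0 genes in edgeR (1664 at an unadjusted p under 0.05, 13.2%), 706 in DESeq2 (5.6%) and 109 in limma-voom (0.864%). Regional differences had the same sign in both classes for Slit2, Chrdl1, Ttr, Hopx, Gfap and Abca1, and opposite signs for Prox1, Slc1a2 and Rgs2. For Slc1a2 the interaction had an edgeR adjusted p of 0.264, with -0.27 ± 0.36 in CD51+ and 1.10 ± 0.36 in CD51- libraries.

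**Figure D5:**
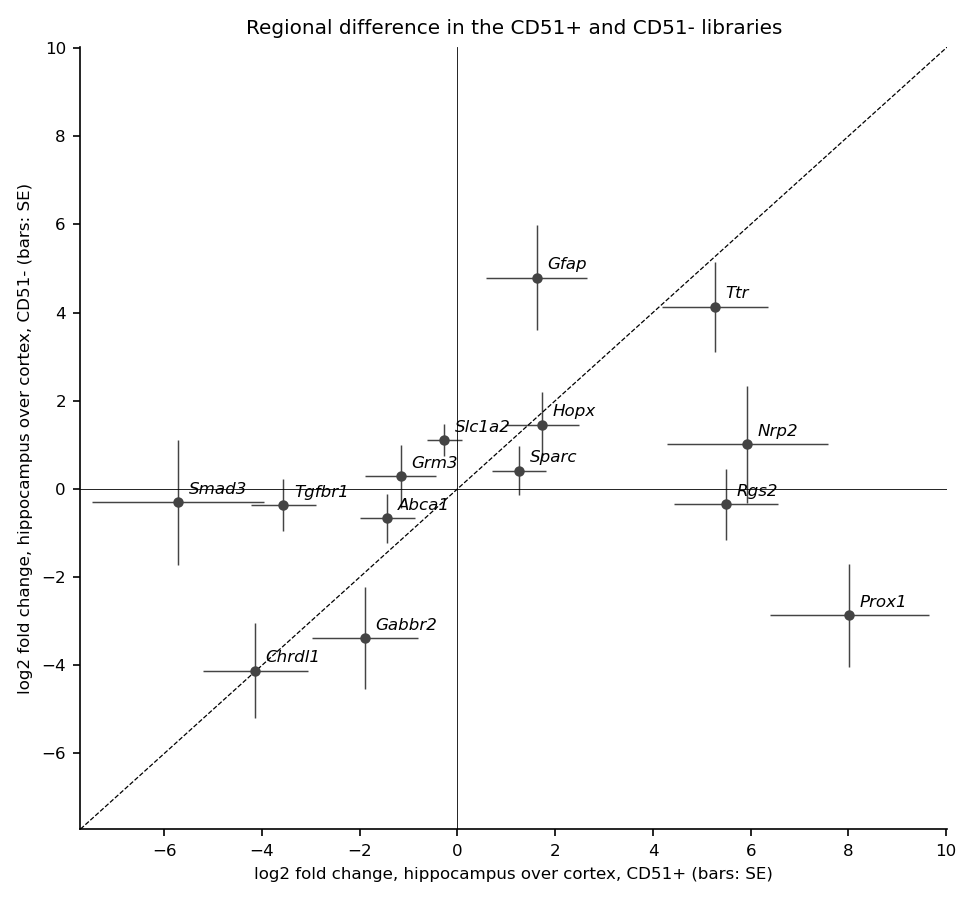
Fitted log2 fold change of hippocampus over cortex in the CD51+ libraries (x axis) and in the CD51- libraries (y axis) for 14 genes, with bars of 1 SE and a dashed line of equality. Chrdl1 (-4.14 and -4.12) lies on the line, Ttr (5.27 and 4.13) lies near it, and Tgfbr1 (-3.56 and -0.37), Prox1 and Rgs2 lie away from it, none of them with an adjusted interaction p under 0.05 in edgeR, whereas in DESeq2 it was 0.0349 for Tgfbr1, 7.08e-06 for Prox1 and 0.00136 for Rgs2.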

How the data were processed

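RNA of sorted cells was sequenced as paired 150-base reads from 10 ng of RNA, per the labels' protocols. The deposited values are raw counts per gene, which the authors made with featureCounts 2.0.4 over GENCODE vM25 exons (mm10), unstranded, per the file headers; STAR and DESeq2 1.40.2 are named in the submitters' processing notes. Reads of overlapping antisense genes are therefore mixed. Symbols matched 55141 of 55401 gene IDs. Genes were kept by filterByExpr of edgeR (minimum count 10, minimum total 15). The test was edgeR 4.0.16's quasi-likelihood F test (R 4.3.3) with TMM factors, all 12 libraries and 4 groups, adjusted at 0.05. The common biological coefficient of variation was 1.28. DESeq2 1.42.0, limma-voom (limma 3.58.1), other scalings, filters and sample sets, a replicate block and each library left out were alternatives. The SE is the log2 fold change over the root of F. A gene without counts in a group gets a bound from a floor of 3 counts over the group, and where a group has 1 to 3 counts the ratio is given with its 95% interval from counting. Both cover counting error only. The fit was tested on simulated data. Genes named are Itgav, those called with at least 5 CPM and no overlap (filled up to 6 a direction by p), the 8 most abundant astrocyte markers and, of 32 lists, up to 4 members each by p; Bgn was added later. Members and lists were chosen with earlier results of these data known.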

Additional observations from a re-analysis of the deposited data

How the results depend on the processing

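The count of 5 genes was the same under DESeq2's size factors or upper-quartile scaling in edgeR, a filter of 1 CPM in 3 libraries and without mitochondrial genes. It was 488 with DESeq2, 2 with limma-voom, 97 with no filter beyond 1 count, 20 with robust dispersions, 3 with only the 6 CD51+ libraries, 0 with a minimum change of 1 log2 unit (glmTreat), and 1, Tgfbr1, among genes of at least 50 CPM on average, a filter chosen after seeing the data. Same-numbered libraries of the regions deviated together by r = 0.021, 0.0053 and 0.0054 across genes, and other pairs by -0.021 to 0.016. Matched and unmatched pairs were of like size, so the measure cannot tell whether the numbers pair the libraries. With the replicate block the count was 0, and 36 with the block in the 6 CD51+ libraries. Leaving out 1 library gave 2 to 35 genes: 2 without cortical CD51+ replicate 3 (Csf3r and Hpgds), 4 without replicate 2 (mt-Rnr1, mt-Rnr2, Runx1 and Casp8), 8 without replicate 1, 15, 6 and 14 without hippocampal CD51+ replicate 1, 2 and 3, and 35 without cortical CD51- replicate 3. For the interaction the count of 0 became 522 with DESeq2, 146 with no filter, 1 with robust dispersions and 0 to 42 with 1 library left out. For the CD51- libraries it became 706 with DESeq2, 109 with limma-voom, 112 with no filter, 19 with robust dispersions and 0 to 68 with 1 library left out. The log2 ratio of the summed microglial markers, 0.23, was -1.49 without hippocampal replicate 3 and 0.82 without cortical replicate 2, and that of border macrophage markers, 0.28, was 5.19 without cortical replicate 3 and -0.29 without cortical replicate 1. Of 61 genes followed, 57 kept their direction in every alternative. Aldoc reversed to 0.0019 in limma-voom and 0.028 without cortical replicate 3 (-0.30 without hippocampal replicate 2). Ttyh1 reversed to 0.074 with upper-quartile scaling, 0.023 with no filter, 0.020 with the 6 libraries, 0.027 with their block, 0.012 without mitochondrial genes, 0.13 without cortical replicate 2, 0.12 without hippocampal replicate 1 and 0.11 at 50 CPM (-0.15 to 0.13 with 1 CD51+ library left out). Cst3 reversed to -0.045 in limma-voom, -0.095 without cortical replicate 1 (0.22 without replicate 2) and -0.32 without hippocampal replicate 3, and mt-Rnr1 to 0.065 in limma-voom. The cause of these changes was not tested. The median SE was 1.83 over all genes and 0.50 over the 116 with at least 500 CPM.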

Other observations

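The heat shock and interferon lists as a whole were not described above. Of 14 heat shock genes edgeR and limma-voom called 0 (1 higher and 1 lower at an unadjusted edgeR p under 0.05, and 1 lower in DESeq2), with a median of -0.26. Of 12 interferon and MHC class I genes the 3 tools called 0, with 3 higher at an unadjusted edgeR p under 0.05 (7.12% over all genes tested). Their median was 1.64, or 1.05 with genes absent from a group at their bound. Of 37 morphogen signalling genes the 3 tools called 0, with 2 lower at an unadjusted edgeR p under 0.05 and a median of -0.15. Gli2, a transcription factor of Hedgehog signalling, was at 60.5, 28.1 and 299 CPM in cortical and 15.4, 5.50 and 59.0 CPM in hippocampal CD51+ libraries, which overlapped. Tcf7l1, a Wnt-responsive repressor, was at 0, 0 and 3.04 CPM in cortex and 18.1, 22.7 and 13.2 CPM in hippocampus, without overlap (edgeR adjusted p = 0.539). Of 7 ependymal markers tested 5 had positive and 2 negative differences. At an unadjusted edgeR p under 0.05 there were 3, all higher in hippocampus (7.12% over all genes tested), with 0 called by edgeR and limma-voom and 1 by DESeq2. These 3 had no count in cortical CD51+ libraries and could not have come out lower in hippocampus. Among them, the ciliary adenylate kinase gene Ak7 had 4.59, 5.63 and 26.1 CPM in hippocampus, at least 76.3-fold higher (edgeR adjusted p = 0.327). Rarres2 of the same list was lower without overlap, at 33.8, 0.769 and 1.22 CPM in cortex and 0, 0.537 and 0.168 CPM in hippocampus (edgeR adjusted p = 0.442). Lamp5, a marker of cortical neurons, was at 0.336, 18.3 and 12.8 CPM in cortex and had no count in hippocampus in either class. Of the remaining marker lists 1 endothelial gene was higher and 2 lower at an unadjusted edgeR p under 0.05, 1 hippocampal neuron gene (Prox1) was higher, 1 cortical neuron gene was higher and 2 were lower, and for oligodendrocyte precursors, mural cells and fibroblasts there were 0. DESeq2 called Prox1 and Lamp5 of these.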
